A study of Mus musculus with 6 samples.

Results

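The genes of the cytosolic ribosomal proteins were followed in BDC2.5 CD4 T cells, whose transgenic receptor recognises an antigen made by the beta cells of the pancreas. A gene was taken if its symbol starts with Rpl or Rps and a digit, or with Rplp and a digit. Kinases of the Rps6k family and pseudogenes marked -ps were left out. For each gene the probe set that names only that symbol and has the highest mean over the 6 arrays was used, which gave 62 of the 19938 measured genes. No filter on low values was applied, so all 62 were tested. They hold 53 core proteins of the ribosome, 33 of the large subunit with its stalk and 20 of the small subunit. The other 9 were set apart from this core. The 9 are Rps19bp1, which binds Rps19, the pre-ribosome factor Rpl7l1, the paralogs Rpl3l, Rpl10l, Rpl39l, Rps4l and Rps27l, and the gene copies Rpl32l and Rps23rg1. A further 20 symbols, Rpl3, Rpl11 and Rps27 among them, occur only on probe sets that list several genes and have no value of their own here.

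The arrays measured RNA of T cells transferred into female NOD mice aged 7 weeks, a strain that develops autoimmune diabetes. The mice had received 100 ng of anti-DCIR2-BDC, 100 ng of anti-DEC205-BDC, or PBS, and Thy1.1+CD4+ cells were sorted from the spleen 14 h after the injection. Both antibodies carry the BDC antigen, the first to DCIR2+ and the second to DEC205+ dendritic cells. No group given an antibody without antigen was analysed here, so effects of antigen and antibody cannot be told apart. There were 3 groups with 2 arrays each, and the labels call the 2 biological duplicates. The number of mice behind an array is not stated, so p-values measure the spread between these samples.

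Cytosolic ribosomal proteins join ribosomal RNA in the nucleolus to form the large and the small subunit. Their mRNAs are among the most abundant of a cell and are known to be controlled mainly in translation, through a pyrimidine tract at the cap that responds to mTOR and Larp1. A T cell that is stimulated through its receptor leaves quiescence, raises Myc and builds new ribosomes before it divides. An array measures the mRNA and does not show how much of it is translated.

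Array medians lay between 5.43 and 5.56 on the log2 scale, and the arrays of a group correlated across probe sets at r = 0.974 to 0.982. Array 2 of anti-DEC205-BDC correlated better with both anti-DCIR2-BDC arrays, at 0.979 and 0.980, than with array 1 of its own group, at 0.974. Array 1 correlated with each anti-DCIR2-BDC array at 0.971, and the PBS pair also had 0.974. These values do not single out 1 of the 2 anti-DEC205-BDC arrays as unusual. The 9 measured T cell markers lay at a median percentile of 99.5 of all genes in PBS, against 12.9 to 52.6 for the lists of 7 other cell types, with CD8 T cells the highest and NK cells the lowest of these. After anti-DCIR2-BDC 6 of the 9 T cell markers fell against PBS and 0 rose, with a mean over the list of 9.97 and 10.01 in the anti-DCIR2-BDC arrays and 10.66 and 10.82 in the PBS arrays. No marker of another cell type rose in a comparison with PBS (limma, adjusted p under 0.05), and 2 fell after each antibody. These were Klrd1, of the NK cell list, at -2.62 after anti-DCIR2-BDC and -1.54 after anti-DEC205-BDC, and Ly75, of the dendritic cell list, at -1.10 and -0.75. The rest of these 2 lists did not follow. Ncr1 had -0.17 and 0.12 and Klrb1c 0.16 and -0.14, at percentiles of 12.9 and 6.54 in PBS, against 82.9 for Klrd1. The other dendritic cell markers lay between -0.17 and 0.14 after anti-DCIR2-BDC and between -0.18 and 0.18 after anti-DEC205-BDC. The part of the marker shifts in the values of the ribosomal protein genes was not tested. In bulk samples such as these, fewer cells of a type and less RNA per cell cannot be told apart.

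The first comparison set anti-DCIR2-BDC against PBS and asked how antigen from DCIR2+ dendritic cells changed the T cells. Most mRNAs of core proteins stayed within a narrow range. Outside the core 3 genes rose at least 2-fold, the paralog Rps27l among them. In all, 8 of the 62 genes rose and 2 fell by limma with Benjamini-Hochberg adjustment over all genes. That is against 17.9% of all genes called in either direction, 10.1% higher and 7.82% lower. At an unadjusted p under 0.05 there were 16 of the 62, against 28.1% of all genes. The risers were Rps19bp1, Rps27l, Rpl7l1 and the large subunit genes Rpl12, Rpl14, Rpl30, Rpl7a and Rpl4, and the small subunit genes Rps14 and Rps29 fell. The median log2 change of the 62 was 0.04, against -0.05 over all genes.

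Rps19bp1, which encodes a nucleolar protein that binds Rps19, had log2 values of 8.99 and 9.01 in the anti-DCIR2-BDC arrays, 8.40 and 8.75 in the anti-DEC205-BDC arrays, and 6.86 and 7.33 in the PBS arrays. Both antibody groups were high, without overlap with PBS. It rose 3.75-fold after anti-DCIR2-BDC (log2 change 1.91, standard error 0.22, limma adjusted p = 0.000221). Its partner Rps19, a protein of the small subunit that is mutated in Diamond-Blackfan anemia in humans, had 9.45 and 9.69 in the anti-DCIR2-BDC arrays against 9.76 and 9.44 in the PBS arrays. These values overlap, and the log2 change of Rps19 was -0.03 with a 95% interval from -0.41 to 0.35.

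Rps27l is a paralog of Rps27 and is known from human cells as a target of p53. It had 9.29 and 9.74 in the anti-DCIR2-BDC arrays, 9.29 and 9.18 in the anti-DEC205-BDC arrays, and 8.11 and 7.67 in the PBS arrays. The PBS arrays were the low ones, and neither antibody group overlapped them. The rise after anti-DCIR2-BDC was 3.09-fold (log2 change 1.63, standard error 0.22, limma adjusted p = 0.000517). Rps27 itself is listed only together with Rps27rt, and the 2 probe sets that list this pair both fell in the same comparison, with log2 changes of -0.61 and -0.39.

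Rpl7l1, related in sequence to Rpl7 and a factor of pre-ribosomes, had 7.85 in both anti-DCIR2-BDC arrays, 7.43 and 7.65 in the anti-DEC205-BDC arrays, and 6.50 and 6.48 in the PBS arrays. All antibody arrays lay above both PBS arrays. It rose 2.57-fold after anti-DCIR2-BDC (log2 change 1.36, standard error 0.19, limma adjusted p = 0.000586). Its relative Rpl7, a core protein, had a log2 change of 0.19 with an interval from -0.05 to 0.42. Rps19bp1, Rps27l and Rpl7l1 passed under each of the 15 alternative settings tried for this comparison.

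**Figure D1:**
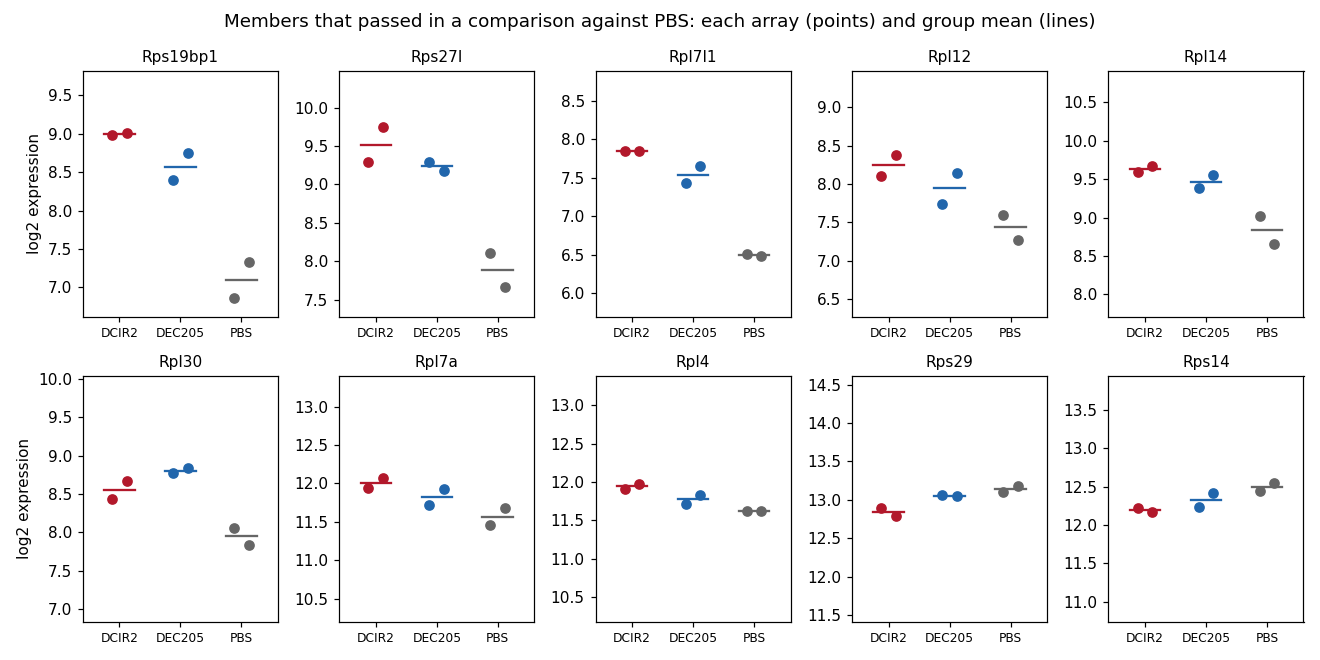
Log2 expression (vertical axes, each spanning the same number of log2 units) of the 10 genes that passed in a comparison with PBS, with 1 point per array and a line at the mean of each group, in the order anti-DCIR2-BDC, anti-DEC205-BDC and PBS. The top row starts with Rps19bp1, Rps27l and Rpl7l1, whose PBS arrays lie well below the others, and the last 2 panels show the small falls of Rps29 and Rps14.

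Among the core proteins, 5 of 53 rose and 2 fell after anti-DCIR2-BDC, and 0 changed 2-fold. Rpl14, a protein of the large subunit, had 9.59 and 9.67 in the anti-DCIR2-BDC arrays, 9.38 and 9.56 in the anti-DEC205-BDC arrays, and 9.02 and 8.66 in the PBS arrays. Neither antibody group overlapped PBS, and the rise after anti-DCIR2-BDC was 1.73-fold (log2 change 0.79, standard error 0.18, limma adjusted p = 0.0107). Rpl12, which sits at the base of the stalk, had 8.11 and 8.38 in the anti-DCIR2-BDC arrays, 7.74 and 8.15 in the anti-DEC205-BDC arrays, and 7.60 and 7.27 in the PBS arrays. Its rise after anti-DCIR2-BDC was 1.75-fold (log2 change 0.81, standard error 0.22, limma adjusted p = 0.0273). Rpl30, also of the large subunit, had 8.43 and 8.67 in the anti-DCIR2-BDC arrays, 8.77 and 8.84 in the anti-DEC205-BDC arrays, and 8.06 and 7.84 in the PBS arrays. It was the only one of the 5 core risers whose mean was higher after anti-DEC205-BDC than after anti-DCIR2-BDC, and its rise after anti-DCIR2-BDC was 1.52-fold (log2 change 0.60, standard error 0.19, limma adjusted p = 0.0492).

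The probe sets of Rpl12 and Rpl30 did not move like others that list the same symbols. The 10 probe sets that list Rpl30 beside predicted genes had log2 changes from -0.41 to -0.20 after anti-DCIR2-BDC, and 1 of them fell. The 7 that list Rpl12 with other genes, small nucleolar RNAs apart, had changes from -0.27 to -0.04, and the 4 that list Rpl34, a core gene of the large subunit, had changes from -0.07 to -0.02. The Rpl34 probe set itself had 0.36 with an interval from -0.04 to 0.77. Probe sets with several symbols cannot be assigned to 1 gene, so it was not tested which of them follow the mRNA of the core gene.

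Rpl7a and Rpl4, of the large subunit, rose by less. Rpl7a had 11.94 and 12.06 in the anti-DCIR2-BDC arrays, 11.72 and 11.93 in the anti-DEC205-BDC arrays, and 11.45 and 11.68 in the PBS arrays, without overlap between either antibody group and PBS. Its rise after anti-DCIR2-BDC was 1.35-fold (log2 change 0.44, standard error 0.11, limma adjusted p = 0.0211). The 3 probe sets that name only Rpl7a all went this way, with log2 changes from 0.44 to 0.57. Rpl4, whose extension lines the exit tunnel of the ribosome, had 11.91 and 11.98 in the anti-DCIR2-BDC arrays, 11.71 and 11.84 in the anti-DEC205-BDC arrays, and 11.62 in both PBS arrays. The groups follow each other without overlap, and the rise after anti-DCIR2-BDC was 1.25-fold (log2 change 0.32, standard error 0.09, limma adjusted p = 0.0349).

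The 2 genes that fell encode proteins of the small subunit. Rps29 had 12.89 and 12.79 in the anti-DCIR2-BDC arrays, 13.06 and 13.05 in the anti-DEC205-BDC arrays, and 13.10 and 13.18 in the PBS arrays. It fell 1.23-fold after anti-DCIR2-BDC (log2 change -0.30, standard error 0.07, limma adjusted p = 0.00902), and each of its 4 probe sets had a negative change, from -0.30 to -0.24. Rps14, which is lost in the human 5q- syndrome, had 12.22 and 12.17 in the anti-DCIR2-BDC arrays, 12.24 and 12.42 in the anti-DEC205-BDC arrays, and 12.44 and 12.55 in the PBS arrays. It fell by the same factor, 1.23-fold (log2 change -0.30, standard error 0.09, limma adjusted p = 0.0382), and both of its probe sets had negative changes. For both genes the 2 anti-DCIR2-BDC arrays lay below all 4 others.

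These calls among core proteins were not firm. Without PBS array 2, 1 of the 53 passed, Rpl7a; without PBS array 1, 4 passed; without anti-DCIR2-BDC array 1 or 2, 3 and 2 passed; without array 1 or 2 of anti-DEC205-BDC, 5 passed each time. Centring each array on its median moved the median change of all genes from -0.05 to 0.06. With it 11 of the 62 rose and 0 fell, the falls of Rps14 and Rps29 being lost (limma adjusted p = 0.186 and 0.0745). With a second quantile normalization 7 rose and 4 fell, but these were in part other genes. The calls of Rpl12, Rpl30, Rpl7a, Rpl4 and Rps29 were lost there (limma adjusted p = 0.0510, 0.104, 0.0772, 0.239 and 0.2545).

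**Figure D2:**
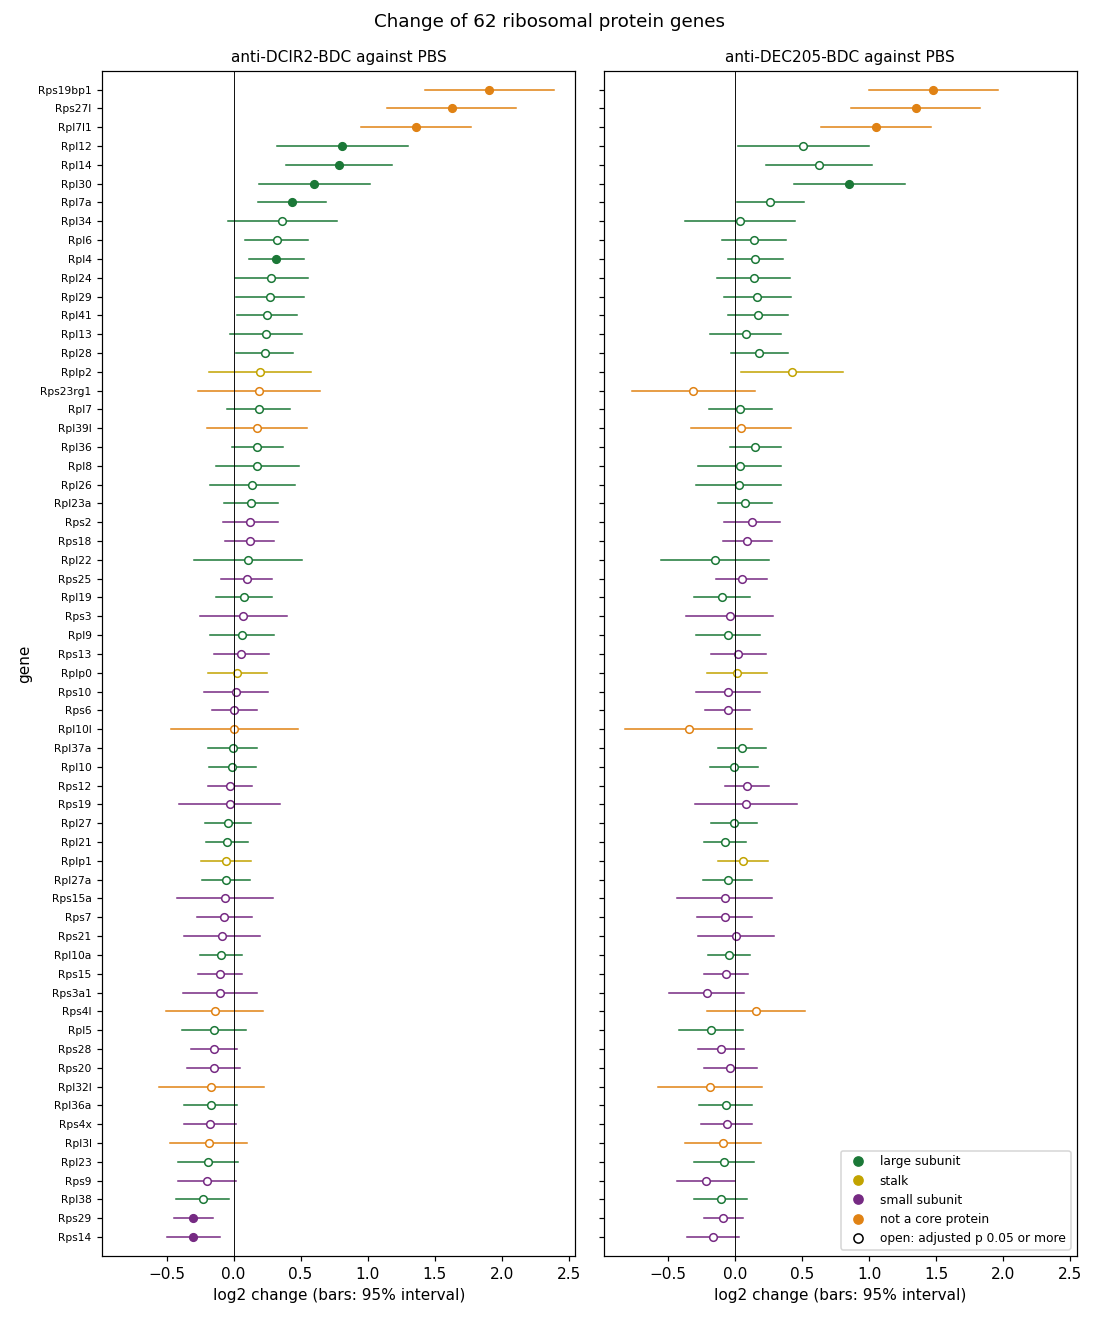
Log2 change of each of the 62 genes (points) with its 95% interval (bars), for anti-DCIR2-BDC against PBS on the left and anti-DEC205-BDC against PBS on the right, ordered by the change on the left. Filled points passed the adjusted p of 0.05; Rps19bp1, Rps27l and Rpl7l1 stand at the top in both panels, and most core proteins lie close to 0.

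The large and the small subunit differed in their medians in this comparison. The 33 large subunit and stalk genes had a median log2 change of 0.14 after anti-DCIR2-BDC, with 5 risers and 0 that fell. The 20 small subunit genes had a median of -0.07, with 0 risers and 2 that fell. With median centring the medians were 0.25 and 0.04, against 0.06 over all genes, so the sign of the small subunit depended on the scaling while the large subunit stayed higher than all genes. With a second quantile normalization they were 0.07 and -0.10, against 0.02 over all genes. This is a description of 2 lists on shared arrays, without a test of the difference.

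In the stalk, which recruits translation factors, Rplp0 and Rplp1 had log2 changes of 0.03 and -0.05 after anti-DCIR2-BDC, with intervals from -0.19 to 0.25 and from -0.24 to 0.13. Each has 2 probe sets of its own, and these intervals cover only the brighter one. The dimmer one had 0.45 for Rplp0 and -0.23 for Rplp1, and neither passed with every probe set tested. Rplp2 had 9.97 and 10.33 in the anti-DCIR2-BDC arrays, 10.37 and 10.39 in the anti-DEC205-BDC arrays, and 9.78 and 10.13 in the PBS arrays. Its anti-DEC205-BDC arrays were the highest, but the gene did not pass in any comparison. Rpl5, which with Rpl11 and the 5S RNA forms a particle that can bind Mdm2, had -0.15 after anti-DCIR2-BDC with an interval from -0.38 to 0.09. Rpl22, which is needed in the development of alpha-beta T cells, had 0.11 with an interval from -0.29 to 0.51. Rpl38, known for its part in the translation of Hox mRNAs in mouse embryos, had -0.23 (limma adjusted p = 0.109).

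The other paralogs and copies gave low values throughout. Rpl3l, Rpl10l, Rpl39l, Rps4l, Rpl32l and Rps23rg1 lay between 3.31 and 6.65 in the 6 arrays. Rpl3l, Rpl10l and Rpl39l lay below the array medians on all 6 arrays, Rps23rg1 on both sides of them, and Rps4l and Rpl32l above them. Rpl3l is known from heart and skeletal muscle and Rpl10l from testis. None of these 6 passed in a comparison. Rpl10 and Rps4x, the core partners of Rpl10l and Rps4l, had log2 changes of -0.01 and -0.18 after anti-DCIR2-BDC, and neither passed. Rpl3, Rpl32, Rpl39 and Rps23 have no probe set of their own. Rpl36a, a core gene of the large subunit, had -0.17 and did not pass, and its paralog Rpl36al has no probe set of its own.

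The second comparison set anti-DEC205-BDC against PBS. Here 4 of the 62 genes rose and 0 fell, against 8.84% of all genes called in either direction, 5.32% higher and 3.53% lower. At an unadjusted p under 0.05 by limma there were 9 of the 62, against 20.7% of all genes. Rps19bp1 rose 2.79-fold (log2 change 1.48, standard error 0.22, limma adjusted p = 0.00282), Rps27l 2.55-fold (log2 change 1.35, standard error 0.22, limma adjusted p = 0.00428), and Rpl7l1 2.07-fold (log2 change 1.05, standard error 0.19, limma adjusted p = 0.00679). Of the 53 core proteins 1 rose, Rpl30, 1.80-fold (log2 change 0.85, standard error 0.19, limma adjusted p = 0.0184). Rpl14 had a change of 0.63 that missed the threshold (limma adjusted p = 0.0556), and it passed under 5 of the 15 alternative settings. Rpl12, Rpl7a and Rpl4 had 0.51, 0.26 and 0.15, and Rps14 and Rps29 had -0.16 and -0.09, none of which passed.

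The median log2 change of the 62 was 0.02, against -0.03 over all genes. The largest negative change of a core gene was that of Rps9, at -0.22 (limma adjusted p = 0.240), and Rps3a1 followed at -0.21. Both are proteins of the small subunit, and neither passed. The call of Rpl30 was lost without PBS array 2 and without either anti-DEC205-BDC array, so that 3 genes passed then, Rps19bp1, Rps27l and Rpl7l1, and the 10 probe sets that list Rpl30 with predicted genes had changes from -0.27 to -0.17. When every probe set was tested, Rps27l also missed the threshold (limma adjusted p = 0.0536), and Rps19bp1 and Rpl7l1 remained.

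The third comparison set anti-DCIR2-BDC against anti-DEC205-BDC. By limma 0 of the 62 genes passed, and 4 genes of all measured, which is 0.0201%. At an unadjusted p under 0.05 there were 2 of the 62, Rps29 and Rps23rg1, against 10.2% of all genes. Rps29 had the smallest adjusted p of the family (0.319), with a log2 change of -0.21 and an interval from -0.36 to -0.07. The intervals of all 62 genes lay within a 2-fold change in either direction, and those of 51 within 1.5-fold. A change of 2-fold between the antibodies thus lies outside the interval of each of these genes. Rps23rg1 had a log2 change of 0.50 with an interval from 0.05 to 0.96 (limma adjusted p = 0.444). The comparisons with PBS share the PBS arrays, so the changes after both antibodies are given here side by side only: 1.91 and 1.48 for Rps19bp1, 1.63 and 1.35 for Rps27l, and 1.36 and 1.05 for Rpl7l1, with anti-DCIR2-BDC first.

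The arrays were also counted without a model. After anti-DCIR2-BDC, 24 of the 62 genes had both arrays above both PBS arrays and 19 had both below, against 55.3% of all genes separated either way. After anti-DEC205-BDC the counts were 17 and 15, against 48.8%. Between the antibodies they were 11 and 10, against 40.2%. Of the 53 core proteins, 48 changed by less than 1.25-fold after anti-DCIR2-BDC, which is 90.6%, against 64.7% of all genes. After anti-DEC205-BDC it was 49, or 92.5%, against 71.6% of all genes. The within-group SD of the 62 had a median of 0.0856, against 0.121 over all genes.

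Core proteins lie near the top of the scale, and their changes were small there. Of the 53, 42 had a mean of 11 or more over the 6 arrays. Among these, 2 rose and 2 fell after anti-DCIR2-BDC and 0 passed after anti-DEC205-BDC, where 2 had an unadjusted p under 0.05 by limma. The other 50 genes with such a mean were called more often, 64% after anti-DCIR2-BDC and 28% after anti-DEC205-BDC. As the mean covers all 6 arrays, a gene can enter this set through the groups where it is high. The shares called thus depend in part on how the set was chosen. The highest value on any array was 13.86, and the highest of a core protein 13.18. Of the 11 core genes with a mean under 11, 3 rose after anti-DCIR2-BDC and 1 after anti-DEC205-BDC: these are Rpl12, Rpl14 and Rpl30, whose values span 7.27 to 9.67. The mean of a probe set depends on its probes, so it does not rank these mRNAs by amount.

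**Figure D3:**
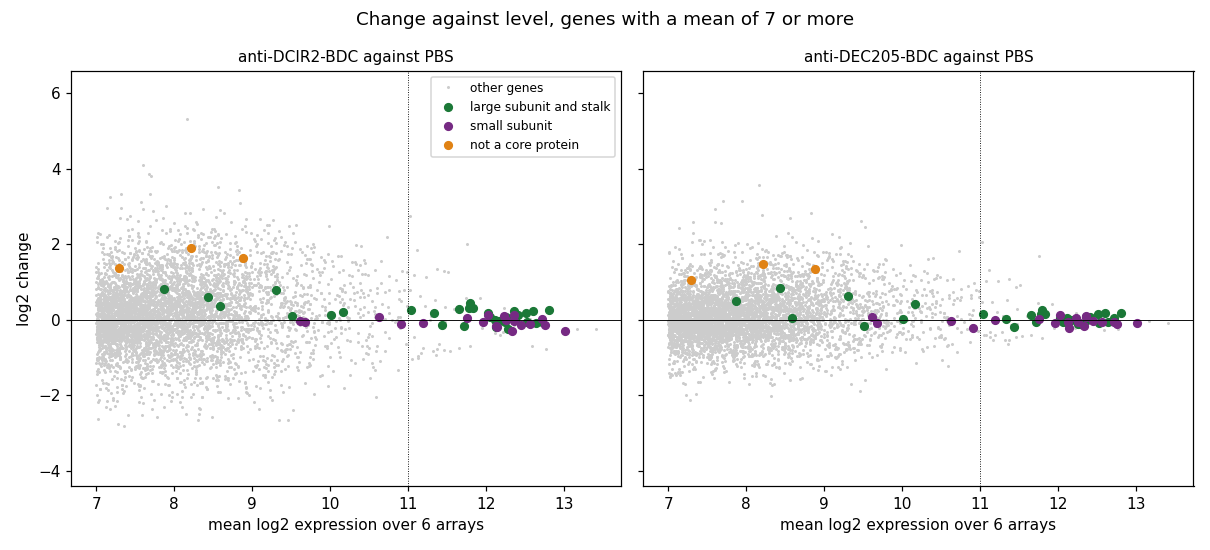
Log2 change (vertical axis) against mean log2 expression over the 6 arrays (horizontal axis) for genes with a mean of 7 or more, for anti-DCIR2-BDC against PBS on the left and anti-DEC205-BDC against PBS on the right. Core proteins (green, large subunit and stalk; purple, small subunit) gather right of the dotted line at 11 with changes close to 0, while other genes (grey) spread more widely; Rps19bp1, Rps27l and Rpl7l1 are the orange points.

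Many ribosomal protein genes have near-identical copies in the genome, and the array has several probe sets for most. Of the 62 genes 38 had more than 1 probe set that names only them, up to 14 for Rps12. All probe sets of a gene had changes of 1 sign for 28 of the 38 after anti-DCIR2-BDC and for 25 after anti-DEC205-BDC. Some of this agreement was fixed in advance, as the 214 probe sets naming 1 of the 62 genes hold 202 distinct rows of values. The 3 probe sets of Rpl41, for example, gave the same changes. With every probe set tested, 5 of the 214 that name 1 of the 62 genes rose after anti-DCIR2-BDC and 3 fell, which is 3.74%, against 9.49% of all probe sets. After anti-DEC205-BDC 2 rose and 0 fell, against 1.95% of all probe sets.

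The 239 probe sets that list a ribosomal protein gene among several behaved differently after anti-DCIR2-BDC. There 44 rose and 5 fell, which is 20.5%, against 9.49% of all probe sets. After anti-DEC205-BDC 0 passed by limma, against 1.95% of all probe sets. Of the 44, 30 list Rpl29 and 13 list Rpl7a, each with predicted genes. The 35 probe sets that list Rpl29 had log2 changes from 0.28 to 0.59 after anti-DCIR2-BDC, and the 17 that list Rpl7a from 0.32 to 0.63. The probe set naming only Rpl29, a core gene of the large subunit, had 11.22 and 11.11 in the anti-DCIR2-BDC arrays, 10.996 and 11.12 in the anti-DEC205-BDC arrays, and 10.85 and 10.94 in the PBS arrays. Both antibody groups lay above PBS without overlap, but the change of 0.27 after anti-DCIR2-BDC did not pass (limma adjusted p = 0.146). Their annotations list the same few genes, so 44 is not a count of genes.

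Starts of the genes were read from RefSeq promoters of GRCm38.p6, which had an entry for 50 of the 62. The pyrimidine tract of ribosomal protein mRNAs begins with C at the cap, so a run was searched as C and at least 4 further C or T on the gene's strand that touches the 10 bases on either side of the start. The lines give 20 bases before the start and 10 from it, 5′ to 3′, with the runs in capitals, for 6 of the genes that passed and, as a core gene that did not, Rpl38.
Rps19bp1: accgccagggcggaagtagctcgccgcgtg
Rpl7l1: gcccggtgaggctgcgcaagcgcagtagct
Rps27l: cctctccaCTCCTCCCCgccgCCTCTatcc
Rpl14: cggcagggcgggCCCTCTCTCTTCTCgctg
Rpl12: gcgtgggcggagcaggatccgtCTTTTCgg
Rpl7a: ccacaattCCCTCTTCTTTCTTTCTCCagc
Rpl38: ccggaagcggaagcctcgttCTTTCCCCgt

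These stretches lie at chr15:80264297-80264326 (minus strand), chr17:46782647-46782676 (minus), chr9:66946066-66946095 (plus), chr9:120571497-120571526 (plus), chr2:32961692-32961721 (plus), chr2:26910787-26910816 (plus) and chr11:114668560-114668589 (plus), in the order shown. Rps19bp1 and Rpl7l1 hold no such run in this window, Rps27l holds it at 1 of its 2 annotated starts, and the longest runs of Rpl14 and Rpl7a span 14 and 19 bases. A run was present in 26 of the 42 core genes with an entry (61.9%), in 32 of 68 mitochondrial ribosomal protein genes (47.1%) and in 39.8% of all 15563 genes with one. On the opposite strand the shares were 28.6% of core genes and 43.7% of all genes. The 26 core genes with a run had a median log2 change of 0.09 after anti-DCIR2-BDC and 0.04 after anti-DEC205-BDC, and the 16 without had -0.01 and -0.02. The letters CACGTG, the E-box bound by Myc, which read the same on both strands, were found in the 300-base promoters of 5 of the 50 (10%) and in 9.52% of all genes. A match describes letters only, and bears on no factor.

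Genes that serve ribosomal proteins moved more than the proteins' own genes. The 2 lists lay at unlike levels, with means from 6.48 to 9.12 against 7.87 to 13.01 for core proteins. The part of level in this contrast was not tested. Of 12 chaperones and loading factors 8 rose after each antibody and 0 fell, where 10.1% of all genes rose after anti-DCIR2-BDC and 5.32% after anti-DEC205-BDC, with median log2 changes of 1.70 after anti-DCIR2-BDC and 1.13 after anti-DEC205-BDC. Rrs1, which brings Rpl5, Rpl11 and the 5S RNA into the pre-ribosome, rose by 2.38 and 2.12 on the log2 scale. Bccip, the partner of Rpl23 in human cells, rose by 1.88 and 1.48, and Ltv1, an assembly factor that holds Rps3 in yeast, by 2.03 and 1.23. The importins Ipo5 and Ipo7, which carry ribosomal proteins into the nucleus, rose by 2.14 and 1.92 after anti-DCIR2-BDC and by 1.56 and 1.18 after anti-DEC205-BDC.

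Regulators of the ribosomal protein mRNAs were mixed. Of 7 measured 3 rose after anti-DCIR2-BDC and 2 after anti-DEC205-BDC, and 0 fell, against 10.1% and 5.32% of all genes that rose. Myc rose by 2.74 after anti-DCIR2-BDC and 2.06 after anti-DEC205-BDC on the log2 scale (limma adjusted p = 0.000189 and 0.00280), and Larp1, which binds the pyrimidine tract, by 1.74 and 1.16. Eif4ebp1, a repressor of cap-dependent translation downstream of mTOR, rose by 0.75 after anti-DCIR2-BDC. Mtor had 0.42 and 0.06, and its partner Rptor 0.54 and 0.26, with no call. The S6 kinase gene Rps6kb2 had 0.02 and -0.05, and Eif4ebp2, related to Eif4ebp1, had 0.03 and -0.13, also without a call. Without array 2 of anti-DEC205-BDC 1 of the 7 rose after that antibody, and without PBS array 1, PBS array 2 or either anti-DCIR2-BDC array 2 rose after anti-DCIR2-BDC.

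Over all genes 10.1% rose and 7.82% fell after anti-DCIR2-BDC, and 5.32% rose after anti-DEC205-BDC. Of 14 other mRNAs known for a pyrimidine start, 6 rose and 1 fell after anti-DCIR2-BDC, and 4 rose after anti-DEC205-BDC. The one that fell was Tpt1, at -0.32 on the log2 scale (limma adjusted p = 0.0161), a call that was lost without PBS array 1, PBS array 2 or anti-DCIR2-BDC array 1 and with median centring. Without either anti-DEC205-BDC array 2 of the 14 passed after that antibody. The median log2 changes were 0.47 and 0.27, against 0.03 and 0.02 for the core proteins. Nap1l1 and Npm1, both histone chaperones, rose by 1.82 and 1.20 after anti-DCIR2-BDC and by 1.66 and 1.03 after anti-DEC205-BDC. The translation factor Eif4b rose by 0.79 and 0.67 and the poly(A) binding protein Pabpc1 by 0.57 and 0.44, while the elongation factor Eef1a1 had -0.01 and -0.33 without a call. Rpsa and Fau, ribosomal proteins outside the symbol rule, had 0.03 and -0.20 after anti-DCIR2-BDC and 0.09 and -0.21 after anti-DEC205-BDC, and did not pass.

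Genes of ribosome assembly and of the mitochondrial ribosome rose widely as well. Of 24 assembly factors, which process ribosomal RNA and build the subunits, 24 rose after anti-DCIR2-BDC and 23 after anti-DEC205-BDC, with medians of 2.04 and 1.53. Of all genes 10.1% and 5.32% rose in these comparisons. The widest changes after anti-DCIR2-BDC were those of Mrto4 and Nolc1, at 3.43 and 2.59 on the log2 scale, against 2.84 and 1.99 after anti-DEC205-BDC. Of 77 mitochondrial ribosomal protein genes 52 and 33 rose and 0 fell, against the same shares of all genes, with medians of 1.03 and 0.72. Mrps6 and Mrps18b, of the small mitochondrial subunit, rose by 2.05 and 1.99 after anti-DCIR2-BDC and by 1.48 and 1.33 after anti-DEC205-BDC. Mrpl36 and Mrpl13, of the large one, rose by 1.94 and 1.84 after anti-DCIR2-BDC and by 1.16 and 1.38 after anti-DEC205-BDC. Without array 2 of anti-DCIR2-BDC 33 of the 77 rose after that antibody. After anti-DEC205-BDC 16 rose without PBS array 1, 24 without PBS array 2, 17 without array 2 and 22 without array 1 of anti-DEC205-BDC. In none of these lists did a gene pass between the antibodies by limma; at an unadjusted p under 0.05 there were 16 of the 24 assembly factors and 17 of the 77 mitochondrial genes, against 10.2% of all genes.

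**Figure D4:**
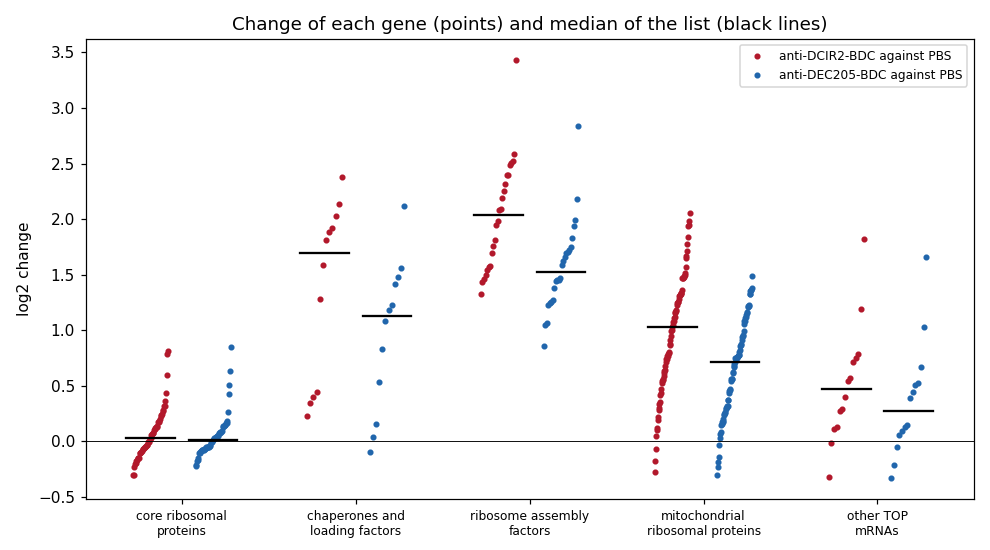
Log2 change of each gene (points) and the median of its list (black lines) for core ribosomal proteins, chaperones and loading factors, assembly factors, mitochondrial ribosomal proteins and other mRNAs with a pyrimidine start (TOP mRNAs), with anti-DCIR2-BDC against PBS in red on the left of each pair and anti-DEC205-BDC against PBS in blue. The core proteins lie near 0, with medians of 0.03 and 0.02, and the assembly factors lie highest, with medians of 2.04 and 1.53.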

How the data were processed

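Per the labels' protocols, a PicoPure kit served to isolate RNA, of which 5 ng went into NuGen Ovation pico amplification before hybridisation to Affymetrix arrays. The authors deposited log2 values per probe set after RMA preprocessing in Partek (design text of the series, submitters' processing notes). The version of Partek is not given in the sources used here. RMA usually includes a quantile normalization, which can hide a change common to all genes. The deposited arrays still differ in median, from 5.43 to 5.56. Amplification of small amounts of RNA can add noise. The deposited columns hold 1 array each, although the design text speaks of averages. The number of arrays limits the precision.

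Of 35556 probe sets 21789 name 1 symbol, 1621 several and 12146 none here. For each gene the probe set with the highest mean was used, which left 19938 genes. The comparisons used limma 3.58.1 (R 4.3.3) on all 6 arrays with a trend in the variance, two-sided, with Benjamini-Hochberg adjustment over all genes and a threshold of 0.05. On simulated data of 19938 genes the test recovered 40% of 2-fold and 88% of 4-fold changes for anti-DCIR2-BDC against PBS, 38% and 91% for anti-DEC205-BDC against PBS, and 48% and 84% between the antibodies.

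The members and lists were chosen with earlier results of these data known. The rule for naming took all members that passed, the 5 highest and 5 lowest changes of each comparison, paralogs and their partners, the stalk, Rpl5, Rps19 and Rps19bp1, and up to 4 genes of each other list in each comparison, or all of lists of up to 8. Rpl29, Tpt1, Klrd1, Ly75, the hosts of small nucleolar RNAs and the setting apart of Rpl32l and Rps23rg1 came after values were seen. Alternatives left out each array in turn, or changed the block, normalization, filter, choice of probe sets, variance trend or arrays in the fit. Small nucleolar RNAs were placed by RefSeq spans of GRCm38.p6, without a check of strand.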

Additional observations from a re-analysis of the deposited data

How the results depend on the processing

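Under 15 alternatives, 14 for Rpl3l and Rpl39l, which the filter on dim genes removed, no gene named with a probe set of its own turned its sign while called. Of the 62 genes, 2 to 5 passed for anti-DEC205-BDC against PBS (4 as reported), 4 to 12 for anti-DCIR2-BDC against PBS (10 as reported), and 0 between the antibodies under each. Leaving out 1 array gave 4 to 8 for anti-DCIR2-BDC against PBS, with a median log2 change from -0.0228 to 0.114, and 3 to 4 for anti-DEC205-BDC against PBS; among core proteins it gave 1 to 5 and 0 to 1. Testing every probe set left 5 genes after anti-DCIR2-BDC and 2 after anti-DEC205-BDC, with 2 and 0 of them core proteins. Without a trend 6 genes passed after anti-DCIR2-BDC, 3 of them core proteins, and with a robust trend 4 core proteins passed. Median centring moved the median of the 62 to 0.149 after anti-DCIR2-BDC and 0.0882 after anti-DEC205-BDC. After anti-DEC205-BDC, 2 core proteins passed with the replicate block, with median centring, without the dimmest 30% of genes, with the mean of all probe sets of a gene, and with a robust trend, where Rpl14 joined Rpl30. The cause was not tested. When every probe set was tested, the counts after anti-DEC205-BDC were 3 of 77 mitochondrial ribosomal protein genes (33 as reported), 4 of 12 chaperones (8 as reported) and 0 of 7 regulators (2 as reported), with 35556 probe sets in the adjustment. With the replicate number as a block 5 of the 62 genes passed after anti-DEC205-BDC and 12 after anti-DCIR2-BDC, 9 of them core proteins. No label ties equal replicate numbers to one mouse or day, and deviations of equal numbers correlated at 0.145, 0.131 and 0.0714. Whether samples of equal number share a day or batch was not tested.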

Other observations

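Several small nucleolar RNAs, which guide the modification of ribosomal RNA, lie inside the spans of ribosomal protein genes. Of 12 measured in 9 host genes, 5 rose and 0 fell after anti-DCIR2-BDC and 3 rose after anti-DEC205-BDC (limma, adjusted p under 0.05), against 10.1% and 5.32% of all genes that rose, and the hosts of these 5 did not pass. Snora33, inside Rps12, had log2 values of 9.55 and 10.44 in the anti-DCIR2-BDC arrays, 8.89 and 9.54 in the anti-DEC205-BDC arrays, and 8.003 and 7.81 in the PBS arrays. It rose by 2.09 on the log2 scale after anti-DCIR2-BDC (limma adjusted p = 0.000721), where Rps12 had -0.03, and by 1.31 after anti-DEC205-BDC, where Rps12 had 0.09. Snord42a and Snord42b, inside Rpl23a, rose by 1.89 and 2.25 after anti-DCIR2-BDC and by 1.93 and 1.66 after anti-DEC205-BDC, where Rpl23a had 0.13 and 0.07. Snora21, inside Rpl23, and Snora3, inside Rpl27a, rose by 0.96 and 0.79 after anti-DCIR2-BDC. Their hosts had -0.19 and -0.06 there. The call of Snora21 was lost without PBS array 1 or anti-DCIR2-BDC array 2, and that of Snora3 without PBS array 2 or either anti-DCIR2-BDC array. After anti-DEC205-BDC the call of Snora33 was lost without PBS array 1, PBS array 2 or anti-DEC205-BDC array 2.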
